A study of Mus musculus with 6 samples.

Results

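The VPS genes are named after yeast mutants that fail to sort proteins to the vacuole, the yeast counterpart of the lysosome. The members were chosen by symbol, as the protein-coding mouse genes whose name is Vps followed by a digit, so no threshold on a measured value picks single genes. The family itself was picked with earlier results of these data known, so its counts of called genes are not those of an unselected list. The rule gave 35 genes among the 54532 gene identifiers measured. Of these, 32 passed a filter of a mean of at least 1 FPKM over all libraries and were tested. FPKM is the number of fragments scaled to library depth and to gene length, here the summed length of all annotated exons. That length exceeds a single transcript by differing factors. Vps35 has 8899 bases against 5002 in its longest transcript, and Vps26a 2860 against 2712. Levels of different genes can therefore be set side by side only roughly, and most abundant below means highest in FPKM.

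The data were RNA-seq libraries of mouse cells labelled iBMDM, the usual short form for immortalized bone marrow-derived macrophages, which divide in culture. In 3 libraries the cells carried a knockdown hairpin for Pgam5 (shPGAM5, PGAM5 KD in the plots), and in 3 others one for Dnm1l, which encodes DRP1 (shDRP1, DRP1 KD). PGAM5 is a mitochondrial protein phosphatase and DRP1 is the GTPase that divides mitochondria. All cells had been given interleukin-4 (IL-4) at 10 ng/ml for 24 h. Neither group is a control: cells with a non-targeting hairpin and cells without IL-4 were not analysed here, so each difference is between the hairpins and does not say which group moved. Whether the 3 numbered libraries of a group come from different hairpins or from separate cultures is not stated in the labels. The p-values therefore cover only the spread between these libraries, which may be technical.

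VPS proteins work in a chain of complexes on endosomes. The ESCRT complexes gather ubiquitin-tagged membrane proteins and bud them into the endosome for destruction, and the ATPase VPS4 takes the final ESCRT filament apart. CORVET tethers early endosomes, and HOPS, which shares its core with CORVET, tethers late endosomes and autophagosomes to lysosomes. Retromer returns receptors from endosomes to the Golgi or the cell surface. GARP tethers the returning carriers at the Golgi, and EARP, which shares most of its subunits, serves recycling endosomes. In macrophages some of these routes deliver phagocytosed and endocytosed material to lysosomes.

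The library depths recovered from the FPKM values were 16111281 to 21933548 reads, the totals used for scaling. Each targeted gene was lower where its hairpin was. Pgam5 averaged 4.91 ± 0.31 FPKM in shPGAM5 cells and 17.2 ± 0.14 FPKM in shDRP1 cells, and Dnm1l averaged 17.9 ± 0.75 FPKM in shPGAM5 cells and 7.57 ± 0.55 FPKM in shDRP1 cells (SD, n = 3 each). Of 10 macrophage markers, 9 were tested, 0 were higher and 4 lower in shPGAM5 cells, Csf1r, Cd68, Lyz2 and Fcgr1, where 13.8% of all tested genes were called higher and 11.7% lower. The other 5 tested markers, Spi1, Adgre1, Ptprc, Cd14 and Itgam, did not pass. Spi1 averaged 192.9 and 191.1 FPKM and Adgre1 43.87 and 43.36 FPKM in shPGAM5 and shDRP1 cells. The summed level of the macrophage markers was 3776 to 3947 FPKM in shPGAM5 cells and 4827 to 4871 FPKM in shDRP1 cells. Most of that gap was that of Lyz2, at 1272 and 1954 FPKM on average, and Mertk was near 0 in both groups. Marker lists of fibroblasts, lymphocytes, neutrophils, and endothelial and epithelial cells, with 6 genes each, summed to at most 0.369 FPKM in any library, with 3, 4, 2 and 3 of their genes at 0 throughout. The part of the macrophage marker difference in the VPS results was not tested.

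Of the 32 tested VPS genes, 9 were lower in shPGAM5 cells, 2 were higher and 21 did not pass the threshold, an adjusted p of 0.05 from limma over all 10634 genes tested. The 9 lower genes make 28.1% of the tested members, where 11.7% of all tested genes were called lower. The 2 higher genes make 6.25%, where 13.8% of all tested genes were called higher. In either direction 34.4% of the members and 25.4% of all tested genes were called. The differences were small: the median absolute difference was 0.094 on the log2(FPKM + 1) scale for the members and 0.105 for all tested genes. The signed median, shPGAM5 minus shDRP1, was -0.064 for the members and 0.009 for all tested genes, and 23 of the 32 members had a difference below 0. In bulk libraries, less transcript per cell and fewer cells with the transcript cannot be told apart.

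**Figure D1:**
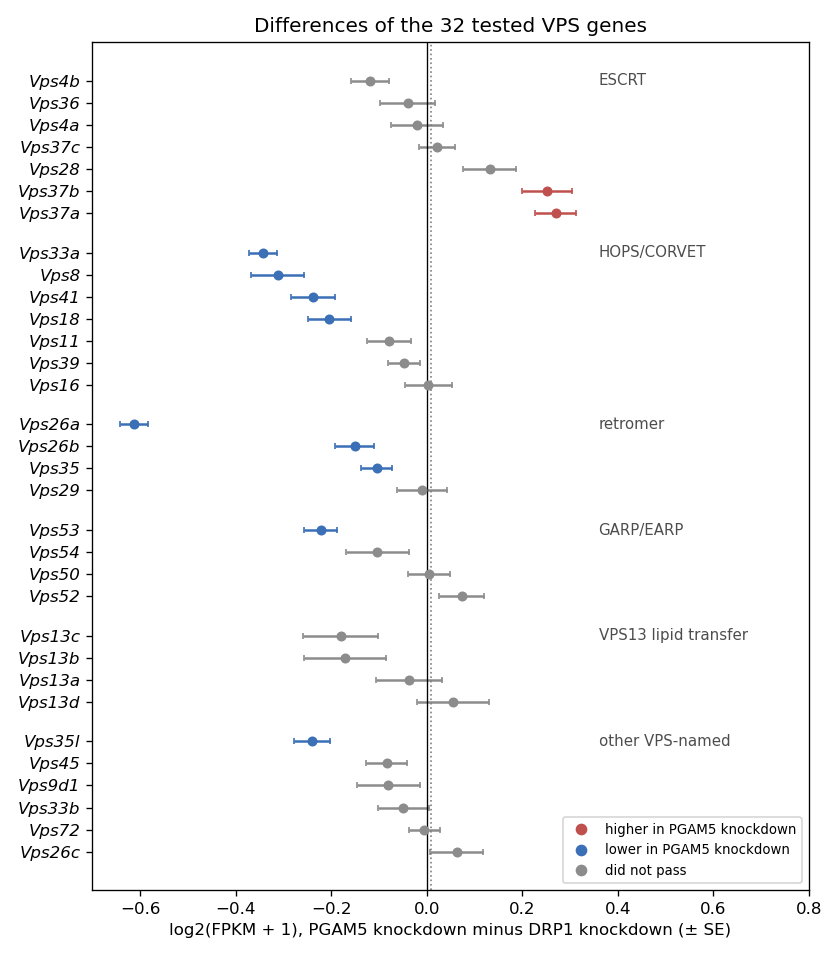
Difference in log2(FPKM + 1) between shPGAM5 and shDRP1 cells for the 32 tested VPS genes, grouped by complex, as points with bars of ± SE; red points were higher in shPGAM5 cells, blue points lower, grey points did not pass, and the dotted line is the median of all tested genes (0.009). Vps26a lies farthest to the left at -0.61, and the 2 points called higher, Vps37a and Vps37b, are both in the ESCRT group.

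The counts by complex are to be read against the 13.8% of all tested genes called higher and the 11.7% called lower. HOPS/CORVET had 0 of 7 tested genes higher and 4 lower (median log2 difference -0.20), and retromer 0 of 4 higher and 3 lower (-0.13). ESCRT had 2 of 7 higher and 0 lower (0.02), and GARP/EARP 0 of 4 higher and 1 lower (-0.05). In lists of 4 to 7 genes a single call is no result about the list. Of 4 VPS13 genes 0 passed with limma (median -0.10). At an unadjusted p under 0.05 that count was also 0, and limma's voom fit on recovered reads called 1, Vps13c, lower. Of the 6 other VPS-named genes 0 were higher and 1, Vps35l, was lower, and the median log2 difference of the 6 was -0.065. Summed over its members, retromer stood at 91.63 to 95.83 FPKM in the shPGAM5 libraries and 118.1 to 120.3 FPKM in the shDRP1 libraries, and HOPS/CORVET at 125.9 to 134.2 FPKM in shPGAM5 cells and 147.1 to 150.9 FPKM in shDRP1 cells. Most of the retromer gap was that of Vps26a, at 40.8 FPKM in shPGAM5 cells and 62.9 FPKM in shDRP1 cells on average. The ESCRT sums (130.7 to 138.2 FPKM in shPGAM5 and 127.4 to 132.0 FPKM in shDRP1 cells) and the GARP/EARP sums (50.24 to 52.2 FPKM in shPGAM5 and 50.73 to 53.6 FPKM in shDRP1 cells) overlapped between the groups. The median level of the tested members was 14.4 FPKM against 9.03 FPKM for all tested genes, and 286 to 7266 reads lay behind each tested member in each library.

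**Figure D2:**
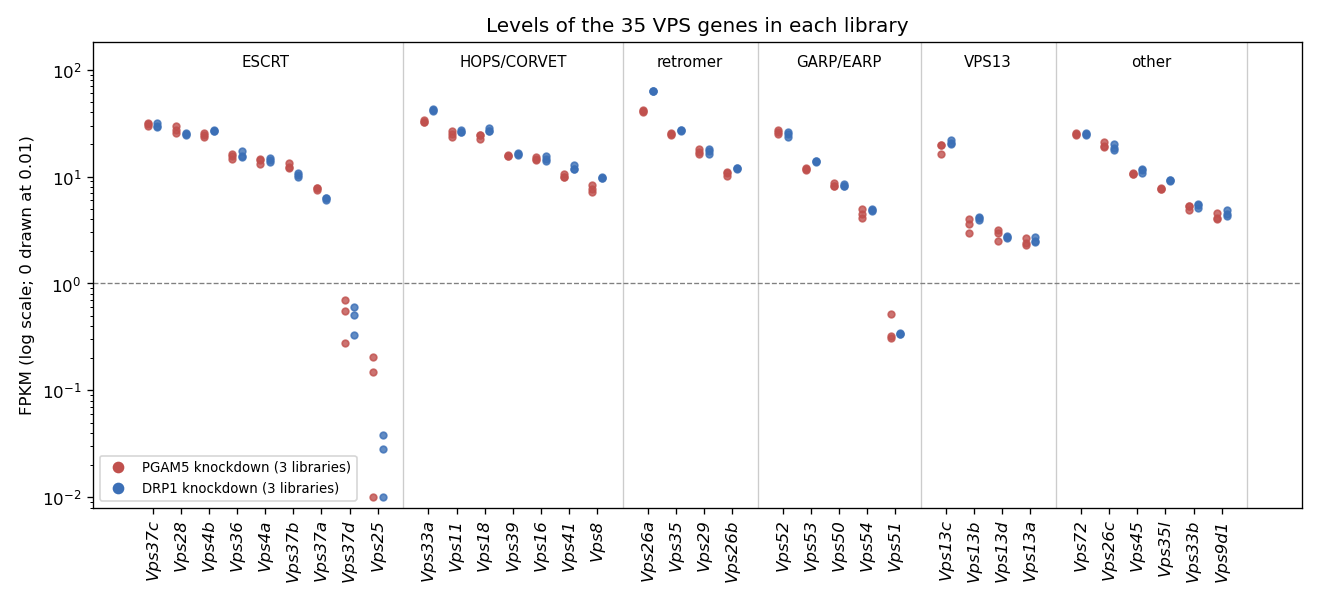
FPKM (log scale) of all 35 VPS genes in each library, with shPGAM5 libraries in red to the left and shDRP1 libraries in blue to the right of each position, ordered by level within each complex; the dashed line marks 1 FPKM, the filter, and values of 0 are drawn at 0.01. Levels run from Vps26a at a mean of 51.9 FPKM down to Vps25 at 0.0701 FPKM, and Vps37d, Vps51 and Vps25 lie below the filter.

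Retromer had the largest single difference of the tested members. Vps26a encodes an arrestin-like subunit that sits at the membrane end of retromer, and it was the most abundant VPS gene. Vps26a (ENSMUSG00000020078) lies at chr10:62455235-62486805 on the minus strand of mm10. It measured 39.84, 40.78 and 41.76 FPKM in the shPGAM5 libraries and 63.07, 62.69 and 63.02 FPKM in the shDRP1 libraries. The groups lay far apart, with no shDRP1 library below 62.69 FPKM. Its mean was 1.54-fold lower in shPGAM5 cells (limma log2 difference -0.61, SE 0.029, adjusted p = 2.7e-05). For single genes an exact permutation test cannot give a two-sided p under 0.1 with 3 libraries against 3, and Vps26a gave 0.1.

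Vps26b, the paralog that can take the place of Vps26a in retromer, measured 10.95, 10.17 and 10.79 FPKM in shPGAM5 cells and 12.01, 12.11 and 11.65 FPKM in shDRP1 cells. The groups did not overlap, and the difference was smaller than for Vps26a (limma log2 difference -0.15, SE 0.041, adjusted p = 0.033). In mm10 Vps26b (ENSMUSG00000031988) spans chr9:27007771-27030065, minus strand. Vps35, the long scaffold of retromer and a gene of inherited Parkinson's disease in humans, measured 24.59, 25.65 and 25.26 FPKM in shPGAM5 cells and 26.8, 27.56 and 27.02 FPKM in shDRP1 cells. The groups were close without overlapping (limma log2 difference -0.10, SE 0.032, adjusted p = 0.049). The Vps35 gene (ENSMUSG00000031696) is at chr8:85260392-85299802, minus strand. Vps29, the small metallophosphatase-fold subunit, averaged 17.1 ± 0.90 FPKM in shPGAM5 cells and 17.2 ± 0.86 FPKM in shDRP1 cells, and its groups overlapped. The Vps35 call was lost when any 1 of the 6 libraries was left out (limma adjusted p up to 0.16), and the Vps26b call without shPGAM5 library 2 or any shDRP1 library (up to 0.11). The retromer count of 3 was then 1 to 2, with Vps26a called in each case.

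The start regions of Vps26a and Vps33a, the members with the largest called decreases, are shown with those of Vps26b and Vps16. Vps26b is the paralog of Vps26a, and Vps16 is a complex partner of Vps33a that did not pass. Windows of Vps18, Vps41 and Vps8, partners of Vps33a that were called lower, were at hand but are not shown. Windows of 250 bases before to 50 bases after the start are from RefSeq (build GRCm38.p6) and were at hand for 22 of the 35 members, in 27 windows. Capitals mark CACGTG, the E-box bound by basic helix-loop-helix factors of the MYC, USF and TFEB type.
Vps26a, chr10:62486756-62487055, minus strand: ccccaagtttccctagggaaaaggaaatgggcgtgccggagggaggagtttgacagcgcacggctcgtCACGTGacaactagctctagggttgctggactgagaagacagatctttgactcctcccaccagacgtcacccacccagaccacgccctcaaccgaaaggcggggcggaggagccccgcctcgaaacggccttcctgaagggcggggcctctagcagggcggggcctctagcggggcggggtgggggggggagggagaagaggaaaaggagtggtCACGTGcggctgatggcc
Vps33a, chr5:123572966-123573265, minus strand: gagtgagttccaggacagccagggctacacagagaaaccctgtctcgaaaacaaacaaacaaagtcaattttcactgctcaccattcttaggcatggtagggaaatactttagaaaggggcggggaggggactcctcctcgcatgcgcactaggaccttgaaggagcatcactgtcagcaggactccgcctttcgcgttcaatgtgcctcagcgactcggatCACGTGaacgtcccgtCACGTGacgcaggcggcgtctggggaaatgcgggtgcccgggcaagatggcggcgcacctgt
Vps16, chr2:130424070-130424369, plus strand: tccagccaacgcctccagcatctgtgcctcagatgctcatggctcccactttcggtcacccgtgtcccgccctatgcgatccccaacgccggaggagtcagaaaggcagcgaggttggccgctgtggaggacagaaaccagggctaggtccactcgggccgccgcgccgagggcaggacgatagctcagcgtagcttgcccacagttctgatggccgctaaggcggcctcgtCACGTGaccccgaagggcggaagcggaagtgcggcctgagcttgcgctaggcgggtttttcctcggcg
Vps26b, chr9:27030045-27030344, minus strand: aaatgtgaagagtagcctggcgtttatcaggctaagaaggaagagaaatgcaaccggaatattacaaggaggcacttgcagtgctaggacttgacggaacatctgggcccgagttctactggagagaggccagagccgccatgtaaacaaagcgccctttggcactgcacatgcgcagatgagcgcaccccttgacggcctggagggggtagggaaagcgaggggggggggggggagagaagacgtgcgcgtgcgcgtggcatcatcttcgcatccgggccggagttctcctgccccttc

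The Vps26a and Vps33a windows each held 2 copies of CACGTG, the Vps16 window 1 and the Vps26b window 0. In the longer form TCACGTGA, which contains CACGTG and is the palindromic core of the lysosomal gene motif known as CLEAR, these were 1, 2, 1 and 0 copies. Vps26a has another window that overlaps this one, and it also held 2 copies of CACGTG and 1 of TCACGTGA. Both strands were searched. The windows of Vps18, Vps41 and Vps8, HOPS/CORVET genes called lower and not shown, held 0 copies of either form. CACGTG was found in 5 of 27 VPS windows (18.5%), against 7.2% of all 32851 windows, and TCACGTGA in 4 (14.8%) against 1.0%. These windows belong to 4 and 3 of the 22 genes, since windows of one gene can overlap. Median GC content was 59.0% in the VPS windows and 52.7% in all windows. By call, CACGTG was in 2 of the 7 lower members with a window, Vps26a and Vps33a, and in 2 of the 13 that did not pass, Vps16 and Vps50. The members called higher, Vps37a and Vps37b, had no window and were not searched, and neither were the lower members Vps35 and Vps35l. The ETS motif CCGGAAG was in 25.9% of VPS windows (5 of 22 genes, with 3 overlapping Vps52 windows) against 8.9% of all and the CCAAT box in 14.8% against 37.4%, while the cAMP response element TGACGTCA (1.8% of all) and a palindromic NRF1-type motif (1.0% of all) were in 0 VPS windows. These are letter matches and not measurements of binding.

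HOPS and CORVET share a core of VPS11, VPS16, VPS18 and VPS33A. Vps33a, the Sec1/Munc18-type subunit that handles SNARE proteins during fusion and the gene mutated in buff mice, measured 33.67, 32.44 and 32.61 FPKM in shPGAM5 cells and 41.97, 42.71 and 41.33 FPKM in shDRP1 cells. All shPGAM5 libraries lay below all shDRP1 libraries, with a mean 1.28-fold lower (limma log2 difference -0.34, SE 0.030, adjusted p = 0.00034). Vps33a (ENSMUSG00000029434) lies at chr5:123528659-123573038 on the minus strand of mm10. Vps18, a RING-domain core subunit, measured 24.57, 22.42 and 24.26 FPKM in shPGAM5 cells against 26.97, 28.55 and 26.97 FPKM in shDRP1 cells. The groups did not overlap (limma log2 difference -0.20, SE 0.045, adjusted p = 0.015), but the call was lost without shDRP1 library 2 (adjusted p = 0.060). In mm10 Vps18 (ENSMUSG00000034216) spans chr2:119288740-119298453, plus strand. The other core subunits did not pass. Vps11 averaged 25.0 ± 1.4 FPKM in shPGAM5 cells and 26.4 ± 0.61 FPKM in shDRP1 cells, and Vps16 averaged 14.7 ± 0.54 FPKM in shPGAM5 cells and 14.7 ± 0.78 FPKM in shDRP1 cells.

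Of the VPS-named subunits specific to a single tether, Vps41 and Vps8 were lower and Vps39 did not pass. Tgfbrap1, a further CORVET subunit counted below among the partners, did not pass either (log2 difference 0.06, limma adjusted p = 0.51). Vps41, the HOPS subunit that contacts the lysosomal side through ARL8, measured 9.95, 9.91 and 10.49 FPKM in shPGAM5 cells and 12.81, 11.77 and 11.78 FPKM in shDRP1 cells (limma log2 difference -0.24, SE 0.047, adjusted p = 0.0099). Every shPGAM5 library was below every shDRP1 library. The Vps41 gene (ENSMUSG00000041236) is at chr13:18717286-18866811, plus strand. Vps39, the HOPS subunit that binds RAB7, averaged 15.7 ± 0.16 FPKM in shPGAM5 cells and 16.3 ± 0.37 FPKM in shDRP1 cells, with overlap. Vps8, the CORVET subunit that binds RAB5, measured 8.32, 7.66 and 7.11 FPKM in shPGAM5 cells and 9.77, 9.61 and 9.95 FPKM in shDRP1 cells. Its groups were separate, with a wider spread in shPGAM5 cells, and its mean was 1.27-fold lower (limma log2 difference -0.31, SE 0.056, adjusted p = 0.0070). Vps8 (ENSMUSG00000033653) lies at chr16:21423118-21644680 on the plus strand of mm10.

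**Figure D3:**
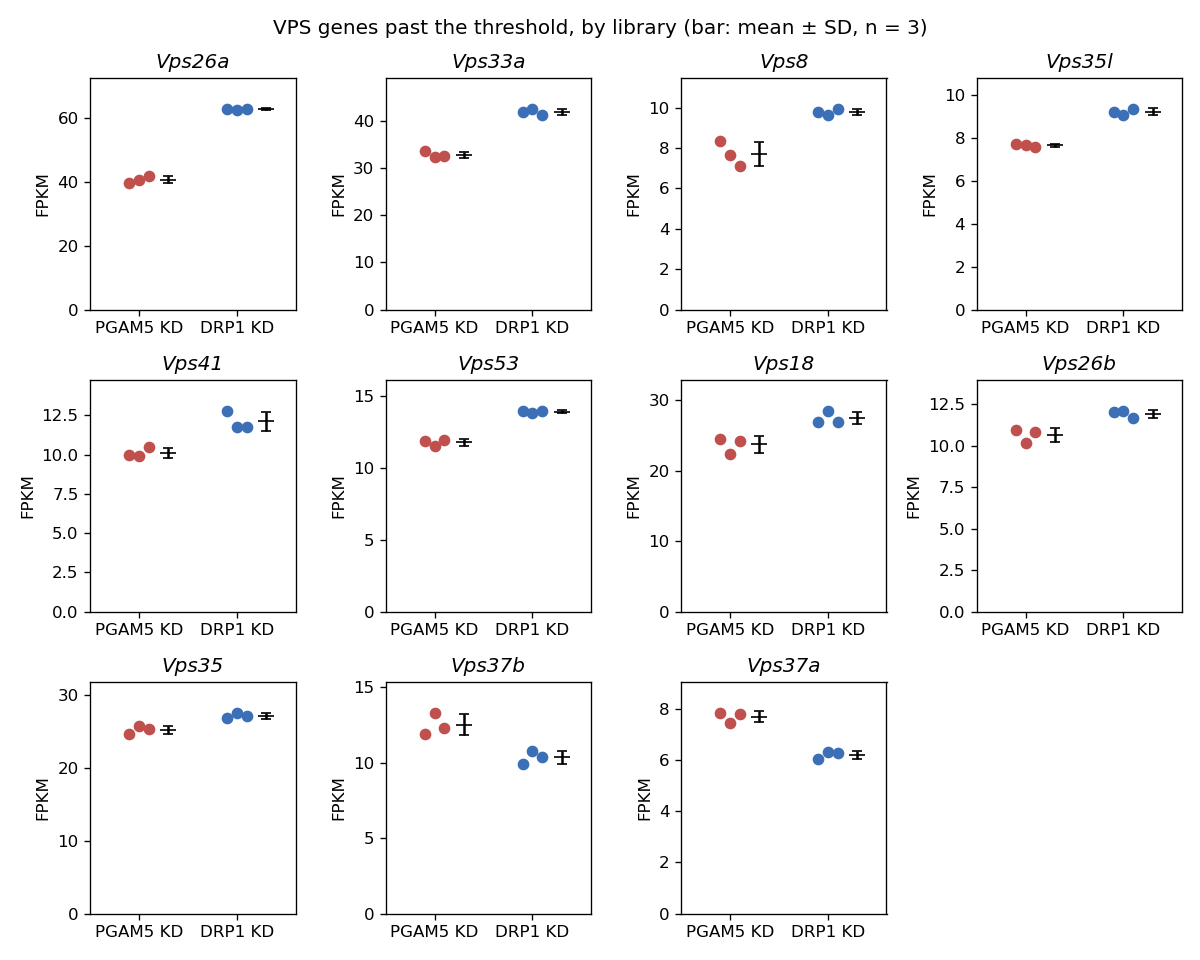
FPKM by library of the 11 VPS genes past the threshold, shPGAM5 libraries (KD, red) left and shDRP1 libraries (blue) right in each panel, with the mean ± SD (n = 3) beside each group and every axis starting at 0. The groups do not overlap in any of the 11 panels; they are widest apart, in FPKM and by log2 difference, for Vps26a (40.8 FPKM in shPGAM5 and 62.9 FPKM in shDRP1 cells on average) and, by log2 difference, closest for Vps35 (-0.10).

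The ESCRT genes gave the calls in the other direction, both among the VPS37 paralogs. VPS37 is the subunit that, as 1 of 4 alternative versions, completes the ESCRT-I heterotetramer. Vps37a measured 7.86, 7.44 and 7.8 FPKM in shPGAM5 cells and 6.04, 6.31 and 6.29 FPKM in shDRP1 cells. All shPGAM5 libraries were above all shDRP1 libraries (1.24-fold higher, limma log2 difference 0.27, SE 0.043, adjusted p = 0.0041). In mm10 Vps37a (ENSMUSG00000031600) spans chr8:40511783-40551134, plus strand. Vps37b measured 11.93, 13.33 and 12.33 FPKM in shPGAM5 cells against 9.93, 10.81 and 10.35 FPKM in shDRP1 cells, again without overlap (1.21-fold higher, limma log2 difference 0.25, SE 0.052, adjusted p = 0.012). The Vps37b gene (ENSMUSG00000066278) is at chr5:124004641-124032270, minus strand. Exons of Hip1r and of a predicted gene, Gm37939, on the opposite strand match 47.0% of the longest Vps37b transcript. Hip1r itself averaged 0.495 and 0.332 FPKM in shPGAM5 and shDRP1 cells and Gm37939 was listed at 0, and their part in the Vps37b value was not tested. Vps37c, the most abundant ESCRT member, measured 29.81, 31.42 and 30.75 FPKM in shPGAM5 cells and 29.74, 31.44 and 29.41 FPKM in shDRP1 cells, and the groups overlapped throughout.

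The remaining tested ESCRT members did not pass. Vps28, another ESCRT-I subunit, averaged 27.7 ± 2.1 FPKM in shPGAM5 cells and 25.2 ± 0.72 FPKM in shDRP1 cells. Vps36, the ubiquitin-binding subunit of ESCRT-II, averaged 15.6 ± 0.84 FPKM in shPGAM5 cells and 16.1 ± 1.0 FPKM in shDRP1 cells. Of the VPS4 ATPases, Vps4a averaged 14.1 ± 0.89 FPKM in shPGAM5 cells and 14.3 ± 0.60 FPKM in shDRP1 cells. Vps4b measured 24.36, 23.39 and 25.71 FPKM in shPGAM5 cells and 26.44, 27.01 and 26.5 FPKM in shDRP1 cells, separate but short of the threshold (limma log2 difference -0.12, SE 0.040, adjusted p = 0.070). Vps4b passed without shPGAM5 library 3, under quantile normalization and with voom.

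Of GARP and EARP, Vps53 was called. It encodes a subunit common to both tethers and measured 11.89, 11.51 and 11.92 FPKM in shPGAM5 cells and 13.93, 13.8 and 13.98 FPKM in shDRP1 cells. The shDRP1 libraries lay close together and above all shPGAM5 libraries (limma log2 difference -0.22, SE 0.034, adjusted p = 0.0036). Vps53 (ENSMUSG00000017288) lies at chr11:76046226-76179647 on the minus strand of mm10. Vps52, the other tested shared subunit and the most abundant of the group, measured 27.38, 25.87 and 25.26 FPKM in shPGAM5 cells against 23.41, 25.21 and 25.89 FPKM in shDRP1 cells, with overlap. Vps54, which defines GARP and carries the mutation of the wobbler mouse, averaged 4.48 ± 0.44 FPKM in shPGAM5 cells and 4.87 ± 0.081 FPKM in shDRP1 cells. Vps50, which defines EARP, averaged 8.32 ± 0.31 FPKM in shPGAM5 cells and 8.28 ± 0.24 FPKM in shDRP1 cells. Neither passed.

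The VPS13 proteins are long bridges that carry lipids between organelles. None of their genes passed with limma. Vps13c, the version on late endosomes and lysosomes, was the most abundant, at 19.65, 19.89 and 16.18 FPKM in shPGAM5 cells and 22.21, 20.79 and 20.32 FPKM in shDRP1 cells. The groups were separate but shPGAM5 library 3 was well below the others of its group (limma log2 difference -0.18, SE 0.079, adjusted p = 0.14). Vps13b, a gene of the Golgi whose loss causes Cohen syndrome in humans, averaged 3.52 ± 0.51 and 4.07 ± 0.13 FPKM in shPGAM5 and shDRP1 cells. Vps13a and Vps13d averaged 2.45 ± 0.21 and 2.89 ± 0.34 FPKM in shPGAM5 cells against 2.54 ± 0.15 and 2.73 ± 0.064 FPKM in shDRP1 cells. In all 4 VPS13 genes the lowest of the 6 values was that of shPGAM5 library 3.

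Among the other VPS-named genes, Vps35l passed. It encodes the scaffold of retriever, a complex of retromer design built with VPS26C and VPS29 that recycles integrins and other cargo. It measured 7.74, 7.67 and 7.59 FPKM in shPGAM5 cells and 9.25, 9.07 and 9.39 FPKM in shDRP1 cells, with no overlap (1.20-fold lower, limma log2 difference -0.24, SE 0.037, adjusted p = 0.0038). In mm10 Vps35l (ENSMUSG00000030982) spans chr7:118740226-118842966, plus strand. Exons of Knop1 and 1700016B15Rik on the opposite strand match 21.1% of its longest transcript, and Knop1 was also lower (8.35 ± 0.23 FPKM in shPGAM5 against 10.1 ± 0.35 FPKM in shDRP1 cells, log2 difference -0.25, limma adjusted p = 0.0051). Without a known strand setting, the part of Knop1 reads in the Vps35l value was not tested. Vps26c measured 19.51, 18.93 and 20.94 FPKM in shPGAM5 cells and 18.63, 20.25 and 17.86 FPKM in shDRP1 cells, overlapped and did not pass.

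Vps33b, the paralog of Vps33a that pairs with VIPAS39 outside HOPS, measured 5.3, 5.29 and 4.85 FPKM in shPGAM5 cells and 5.11, 5.55 and 5.41 FPKM in shDRP1 cells, with overlap. Vps45, a Sec1/Munc18-type regulator of endosomal fusion, averaged 10.6 ± 0.11 FPKM in shPGAM5 cells and 11.3 ± 0.54 FPKM in shDRP1 cells. Vps9d1, a gene with a VPS9 domain, stood at 4.24 ± 0.33 FPKM in shPGAM5 cells and 4.53 ± 0.30 FPKM in shDRP1 cells. Vps72 shares the name but encodes a subunit of chromatin remodelling complexes that handle the histone variant H2A.Z. It measured 25.01, 25.38 and 24.7 FPKM in shPGAM5 cells and 25.04, 25.82 and 24.51 FPKM in shDRP1 cells, with full overlap. None of these passed.

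The members below the filter were Vps25, Vps37d and Vps51. Vps25, a core ESCRT-II subunit, had 0 to 6 reads per library, and 88.7% of its longest transcript is shared with exons of Ramp2 on the same strand. Ramp2 averaged 0.0299 and 0.0893 FPKM in shPGAM5 and shDRP1 cells. Vps51, the GARP and EARP subunit that links the others, stood at 0.308 to 0.516 FPKM in shPGAM5 cells and 0.336 to 0.345 FPKM in shDRP1 cells. Its longest transcript is matched over 30.4% by Tm7sf2 and Gm28374. How reads shared by overlapping genes were counted is not stated, so these levels do not say how much Vps25 or Vps51 transcript was present. Vps37d measured 0.547, 0.278 and 0.707 FPKM in shPGAM5 cells and 0.603, 0.33 and 0.502 FPKM in shDRP1 cells, with overlap.

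Counted by separation alone, 11 of the 32 tested members (34.4%) had all 3 shPGAM5 libraries below all 3 shDRP1 libraries, where 20.5% of all tested genes did. These were the 9 called lower, Vps4b and Vps13c. For the opposite order it was 2 members (6.25%), Vps37a and Vps37b, where 23.0% of all tested genes did.

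Ratios between members within a library do not depend on how the library was scaled. Their size does depend on the exon length used for each gene, so only the difference between the groups is read here. Vps26a stood at 1.62, 1.59 and 1.65 times the level of Vps35 in the shPGAM5 libraries and at 2.35, 2.27 and 2.33 times in the shDRP1 libraries. Of Vps26a and Vps26b together, Vps26a made 79.3 ± 0.81% in shPGAM5 cells and 84.1 ± 0.30% in shDRP1 cells. Vps33a stood at 6.40 ± 0.31 times Vps33b in shPGAM5 cells and 7.84 ± 0.32 times in shDRP1 cells, and at 2.23 ± 0.040 times Vps16 in shPGAM5 against 2.86 ± 0.14 times in shDRP1 cells. Vps37a and Vps37b made 39.8 ± 0.17% of the 3 expressed VPS37 genes in shPGAM5 cells and 35.4 ± 0.62% in shDRP1 cells. The libraries of the groups did not overlap in any of these ratios. Of the 12 ratios computed, 5 others were also separate. Every separate ratio contained a called gene, so the separation largely repeats those calls. The share of other gene pairs whose ratios separate was not computed. Vps41 stood at 0.644 ± 0.024 of Vps39 in shPGAM5 cells and 0.746 ± 0.054 in shDRP1 cells, Vps53 at 0.450 ± 0.019 of Vps52 in shPGAM5 and 0.561 ± 0.030 in shDRP1 cells, and Vps35l at 0.388 ± 0.023 of Vps26c in shPGAM5 and 0.490 ± 0.039 in shDRP1 cells. Vps39 stood at 2.05 ± 0.15 times Vps8 in shPGAM5 cells and 1.66 ± 0.055 times in shDRP1 cells, and Vps29 at 0.677 ± 0.031 of Vps35 in shPGAM5 and 0.633 ± 0.024 in shDRP1 cells. The ratios of Vps4b to Vps4a (1.75 ± 0.14 in shPGAM5 and 1.87 ± 0.10 in shDRP1 cells) and of Vps53 to Vps54 (2.65 ± 0.31 in shPGAM5 and 2.85 ± 0.041 in shDRP1 cells) did overlap.

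**Figure D4:**
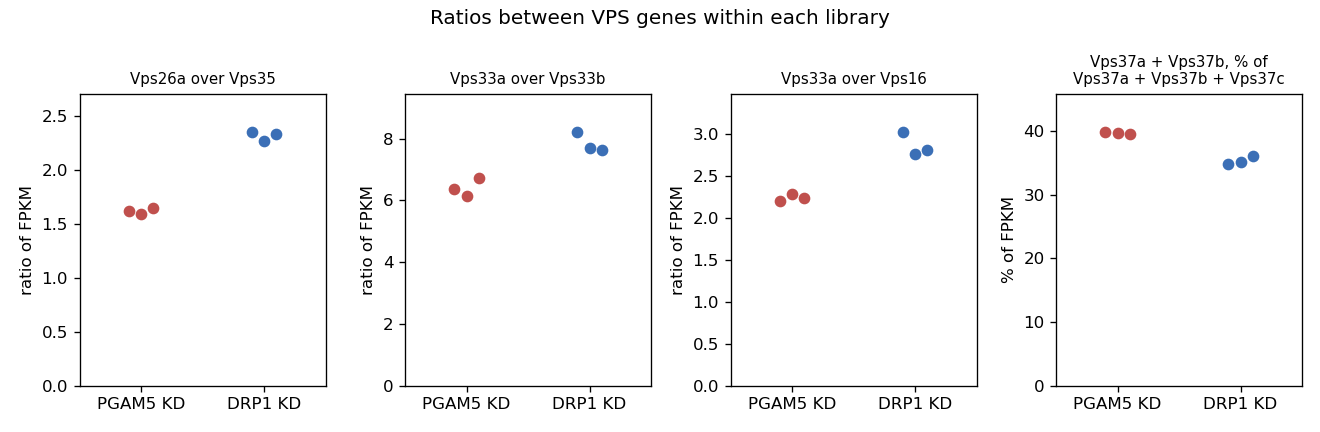
Ratios of FPKM within each library for 4 groups of VPS genes, shPGAM5 (KD, red) left and shDRP1 (blue) right, with axes from 0 and 1 point per library. Vps26a over Vps35 was 1.59 to 1.65 in shPGAM5 cells and 2.27 to 2.35 in shDRP1 cells, and the VPS37 share in the right panel was 39.6% to 39.9% in shPGAM5 cells and 34.9% to 36.1% in shDRP1 cells.

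Genes whose products work with these complexes were counted from lists of the same pathways, to be read against the 13.8% of all tested genes called higher and the 11.7% called lower. Of 20 tested ESCRT partners 2 were higher and 1 lower (median log2 difference 0.01), both shares below those of all tested genes (13.8% and 11.7%), so the count is no result about the list. Stam, which receives ubiquitinated cargo, was lower in shPGAM5 cells (7.40 ± 0.42 FPKM in shPGAM5 against 9.42 ± 0.41 FPKM in shDRP1 cells, log2 difference -0.31, limma adjusted p = 0.0057), and the ESCRT-III genes Chmp5 (0.18) and Chmp2a (0.13) were higher. The Chmp2a call was lost without shPGAM5 library 2 or any shDRP1 library. Hgs, the partner of Stam, was listed at 0 in all libraries. The strand setting and annotation release of the counting are not given, so this value does not say that Hgs transcript was absent.

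Of 16 tested HOPS/CORVET partners 2 were higher and 5 lower (median log2 difference -0.073), where 13.8% of all tested genes were higher and 11.7% lower. The higher share is near that of all tested genes and the lower share is above it. The list holds Vipas39, whose product pairs with VPS33B outside HOPS, so it is not a list of HOPS and CORVET partners alone. Vipas39 was lower (16.2 ± 0.38 FPKM in shPGAM5 against 20.3 ± 0.32 FPKM in shDRP1 cells, log2 difference -0.31, limma adjusted p = 0.00085), as were the late-endosomal SNARE genes Vti1b (-0.30) and Stx8 (-0.23). Without any 1 shDRP1 library neither SNARE gene passed, and Stx8 did not pass without shPGAM5 library 1 or 3 either. Arl8b (-0.15) was also lower and lost its call without shDRP1 library 2 or 3. Plekhm1 (-0.12) was lower and lost its call when any single library was left out. Higher were Rab5c (0.14), with a call that held without each library in turn, and Rab5a (0.13). Rab5a lost its call without any 1 shPGAM5 library and without shDRP1 library 1 or 3.

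Of 26 tested retromer and retriever partners 3 were higher and 2 lower (median log2 difference -0.004), both shares below the 13.8% and 11.7% of all tested genes, so here too the count is no result about the list. Commd6, of the retriever-associated CCC complex, was lower (log2 difference -0.36), and so was Washc2, the WASH complex subunit that binds Vps35 (26.4 ± 0.73 FPKM in shPGAM5 against 31.3 ± 0.43 FPKM in shDRP1 cells, -0.24, limma adjusted p = 0.0023). Sort1, a sorting receptor and retromer cargo, was higher (1.39 ± 0.092 FPKM in shPGAM5 against 0.919 ± 0.090 FPKM in shDRP1 cells, 0.31, limma adjusted p = 0.025), a call that ended when shPGAM5 library 1 or 2, or else shDRP1 library 2 or 3, was left out. Snx5 (0.18, limma adjusted p = 0.0072) and Commd4 (0.12, 0.042) were higher too. The Snx5 call held without each library in turn, and that of Commd4 was lost without any 1 shPGAM5 library and without shDRP1 library 2 or 3. Of 10 tested GARP/EARP partners 0 passed, either with limma on FPKM or with voom. Among these, 2, Stx6 and Stx16, had an unadjusted limma p under 0.05. Arl1, the most abundant of them, averaged 71.7 ± 4.1 and 70.0 ± 0.36 FPKM in shPGAM5 and shDRP1 cells.

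Of 11 tested genes of endosomal phosphoinositide metabolism 1 was higher and 3 were lower (median log2 difference -0.048), where 13.8% of all tested genes were higher and 11.7% lower. The lower genes were Fig4 (log2 difference -0.28, limma adjusted p = 0.0076), Becn1 (-0.17, 0.025) and Pikfyve (-0.16, 0.044). Fig4 kept its call without each library in turn, and Becn1 lost it without shPGAM5 library 2 or any shDRP1 library. Pikfyve lost its call without any 1 of the 6 libraries. Uvrag was the higher gene (0.15, limma adjusted p = 0.017), and its call was lost without shPGAM5 library 2 or shDRP1 library 1 or 2. Pik3c3, the mammalian counterpart of yeast Vps34, and Pik3r4, that of Vps15, averaged 6.58 ± 0.37 and 2.50 ± 0.15 FPKM in shPGAM5 cells against 6.75 ± 0.24 and 2.67 ± 0.23 FPKM in shDRP1 cells and did not pass. These 2 were named after their values were seen, as counterparts of yeast VPS genes without the VPS name in mouse.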

How the data were processed

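Polyadenylated RNA was sequenced from 3 shPGAM5 and 3 shDRP1 libraries, grouped by their titles. The deposited values are FPKM per gene, 1 column per library; per the submitters' processing notes HISAT2 2.0.5 and featureCounts 1.5.0-p3 were used. The strand setting and annotation release of that counting are not given. Of 54532 identifiers, 54409 matched GENCODE M21 (mm10). FPKM times exonic length recovered whole reads for 96.1% of values above 0 (within 0.02 of a whole number), which gave the depths.

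Genes with a mean of at least 1 FPKM were compared by limma 3.58.1 (R 4.3.3) on log2(FPKM + 1) values (empirical Bayes with trend, two-sided, Benjamini-Hochberg over 10634 genes). The log2 differences are on that scale and understate the change of low genes. SD and SE cover the spread between libraries. The fit was tested on simulated data. The planted changes were larger than most of those called among the VPS genes, so this does not test calls of that size.

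Alternatives were a pseudocount of 0.1, no filter, quantile normalization, no trend, voom on recovered reads, a block for the replicate number, and each library left out. Transcripts were matched to other genes with blastn 2.17.0 (97% identity over at least 100 bases).

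Members, gene lists and tests were chosen with earlier results of these data known. Values per library are given for members past the threshold and for the most abundant member of each complex. They are also given for both genes of a paralog pair of which 1 passed. Of each partner list, the genes past the threshold are named, or the most abundant if 0 passed.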

Additional observations from a re-analysis of the deposited data

How the results depend on the processing

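Of 384 values over 32 genes and 12 alternatives, 363 kept their side of the threshold, 17 fell short of it, 4 newly passed and 0 called values turned sign; the 7 genes whose sign changed in some alternative (Vps36, Vps37c, Vps4a, Vps16, Vps29, Vps50 and Vps72) lay near 0 and did not pass in any. VPS genes called lower numbered 9, 7 without the filter, 8 without the trend, 10 under quantile normalization, 11 with voom and 6 to 9 with each library left out. VPS genes called higher numbered 2 in every alternative. Retromer genes called lower numbered 3, 1 without the filter, and 1 to 2 with a library left out. Calls over all genes numbered 2704, and 1798 to 2738 with a library left out, the lowest without shDRP1 library 2. The median difference of the tested VPS genes was -0.064, and -0.087 to -0.050 with a library left out. The cause of these shifts was not tested. Deviations of same-numbered libraries from their group means had correlations of 0.021, 0.031 and 0, and not every library correlated best with its own number. With 3 libraries a group this cannot tell whether same-numbered libraries were prepared together, and the labels do not say. With the replicate block 2133 genes, 6 lower VPS genes and 1 lower retromer gene were called, without Vps18, Vps26b and Vps35. With 3 libraries a group, changes as small as that of Vps35 are at the limit of the design, and genes with 0 to 38 reads (Vps25, Vps37d, Vps51) allow no comparison.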
